A study of Homo sapiens with 24 samples.

Results

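Apolipoproteins are the proteins that wrap the lipids of the blood into lipoprotein particles, and hepatocytes make most of them. The 9 genes described here are the apolipoprotein genes APOA1, APOA2, APOB, APOC1, APOC3, APOE, APOH and APOM together with MTTP, whose protein loads lipid onto apolipoprotein B. They were taken by gene symbol, after matching of Ensembl identifiers, and all 9 were among the 14585 genes of the count table. RNA had been sequenced from Huh7 cells, which come from a human liver carcinoma, and from A549 cells, which come from a human lung carcinoma. Both are labelled as wild type, but the study gives p53 as wild type in A549 cells and mutant in Huh7 cells. Cells of each line were controls or had received extracts of Pulsatilla chinensis, Bupleurum chinense or Polyporus umbellatus, with 3 replicates in each of the 8 groups and 24 libraries in all. Each line is a single culture line and each extract a mixture of compounds. The dose and time used for the sequenced cells, and what the control cells received, are not given in the sources used here. No source says that replicates were separate cultures, so the p-values below measure the spread between these libraries, which may be technical.

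Hepatocytes build very low density lipoprotein in the endoplasmic reticulum. One molecule of apolipoprotein B is filled with triglyceride and cholesteryl ester by the microsomal triglyceride transfer protein, and the particle then leaves the cell in large transport vesicles. Apolipoprotein A-I and A-II, by contrast, leave with little lipid and form high density lipoprotein outside the cell. The small exchangeable apolipoproteins C-I, C-III and E move between both kinds of particle and set how fast they are broken down and taken up. Huh7 cells keep much of this liver programme, which A549 cells lack.

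The deposited values are estimated counts, and they summed to between 7182412 and 24345364 per Huh7 library and between 6803648 and 17175519 per A549 library. Member levels are given as CPM, counts scaled to a common library size by TMM within a line unless stated otherwise. Marker medians and CPM of pathway genes were scaled by TMM over all 24 libraries, and marker sums by library totals alone. Fold changes are given as log2 of treated over control with their standard error (SE). The 95% intervals use the SE with a normal quantile and are somewhat narrower than the test described next implies. A gene was called higher or lower where the Benjamini-Hochberg adjusted p of edgeR's two-sided quasi-likelihood test, fitted over all genes of the line, was below 0.05. The liver label of Huh7 cells held up on its markers, since the 12 hepatocyte markers summed to between 9938 and 12820 CPM in Huh7 libraries and to between 36.2 and 62.9 CPM in A549 libraries, where ALB and AFP had medians of 0. The lung markers NKX2-1, SFTPA1, SFTPA2, SFTPC and NAPSA were not in the table. The keratins KRT7 and KRT81 had medians of 1696 and 2484 CPM in A549 cells and of 0 in Huh7 cells. ALDH3A1 and AKR1B10 had medians of 3319 and 3532 CPM in A549 cells and of 0.80 and 6.33 CPM in Huh7 cells. AKR1C1 separated the lines less, with 670 CPM in A549 and 358 CPM in Huh7 cells. SFTPB went the other way, with 1.40 CPM in A549 and 3.63 CPM in Huh7 cells. The 7 fibroblast, endothelial and leukocyte markers in the table summed to 78.2 to 112 CPM in Huh7 libraries and 26.5 to 40.4 CPM in A549 libraries. Replicate 2 of the Huh7 P. umbellatus group stood apart. The median squared difference of its counts from replicates 1 and 3 was 13.4 and 17.8 times that expected from sampling. Replicates 1 and 3 of that group gave 5.39, and pairs of replicates in the other Huh7 groups gave 2.92 to 3.35. Changes of the members against the P. umbellatus libraries are given with and without replicate 2.

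The members were genes of the liver line. In the control cells all 9 were higher in Huh7 than in A549 cells, in a comparison that called 70.7% of all genes in either direction. APOB was 25760-fold higher, from 11160 CPM in Huh7 control cells to 0.433 CPM in A549 control cells on a scale common to both lines. APOE was 258-fold higher, APOC1 12.1-fold and APOH 5.85-fold. For the others every A549 control library held 3 counts or fewer, so the fold was set against a floor of 3 counts per library. APOA2 was at least 2439-fold higher, APOA1 at least 891-fold, MTTP at least 696-fold, APOC3 at least 40.5-fold and APOM at least 9.93-fold. In A549 cells 5 of the 9 members, namely APOA1, APOA2, APOC3, APOM and MTTP, fell under the mean of 5 counts needed for a test.

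Per kilobase of transcript, the order in Huh7 control cells ran from APOA2 with 1629 ± 161 CPM per kb (SD, n = 3) over APOB with 785 ± 7.97 and APOA1 with 314 ± 3.22 to APOE with 185 ± 9.70 and APOC1 with 185 ± 4.46. Below them came MTTP with 56.2 ± 0.586, APOH with 43.4 ± 1.54, APOC3 with 23.97 ± 2.87 and APOM with 4.13 ± 0.339 CPM per kb. APOE and APOC1 did not differ beyond their spread, and every other pair of neighbours in this order was further apart than their SDs. APOB has the longest transcript of the 9, and without the correction for length it led all members and alone took 1.08% to 1.10% of all counts in a control library.

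With P. chinensis the particle-forming pair APOB and MTTP fell, and with them APOA2. With B. chinense APOA2 alone was called. With P. umbellatus the 7 small apolipoproteins were called lower while APOB and MTTP stood at or above control. When the counts were corrected for trends with GC content and transcript length together, APOC1, APOH and MTTP were called lower with P. umbellatus, and the calls of APOB and MTTP with P. chinensis were kept. The 3 herbs were each compared with the same 3 control libraries, so the comparisons are not independent of each other.

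**Figure D1:**
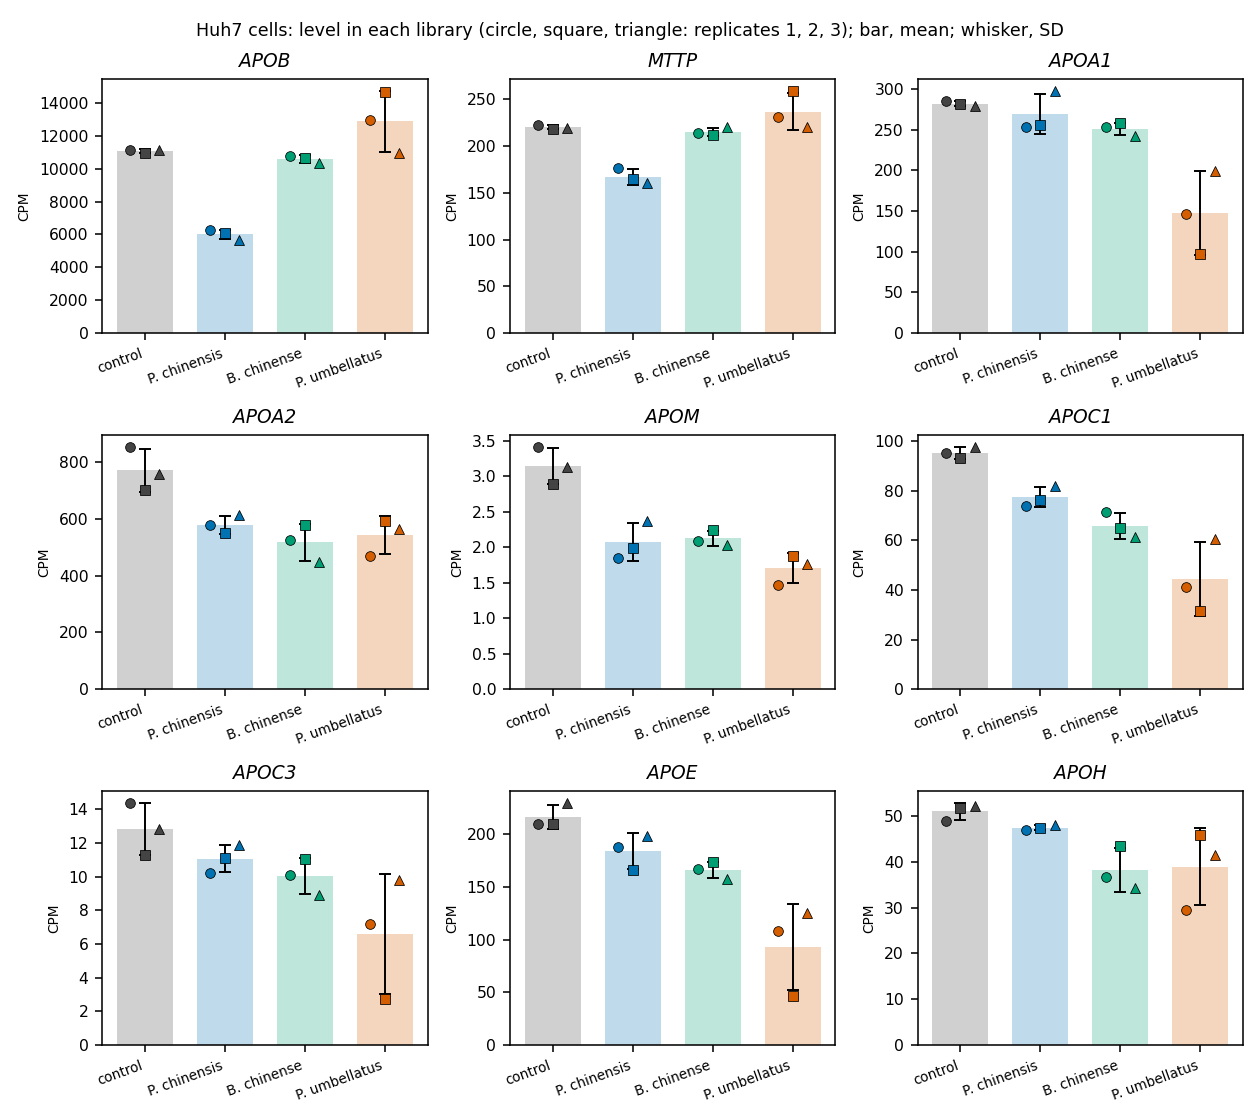
CPM of each member (y axis, 1 panel per gene, each starting at 0) in the 12 Huh7 libraries by group (x axis); points are libraries, bars group means and whiskers SD (n = 3). The P. chinensis points of APOB, between 5664 and 6254 CPM, lie apart from all others, while the P. umbellatus points of APOA1, APOC1, APOC3 and APOE spread widely, with replicate 2 lowest in each.

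APOB (ENSG00000084674) encodes apolipoprotein B, the backbone of very low and low density lipoproteins, and lies on the minus strand of chromosome 2 from 21001429 to 21044073 (GRCh38), with 29 exons and a canonical transcript of 14121 bases. Control libraries held 11150, 10950 and 11140 CPM, and libraries treated with P. chinensis 6254, 6073 and 5664 CPM. The CV of the control values was 1.02%, and every treated library lay far below them. Expression fell by 45.9%, a log2 fold change of -0.89 (SE 0.08, adjusted p = 1.58e-05 by edgeR's quasi-likelihood test). The share of all counts taken by this gene went from 1.08% to 1.10% in control libraries to 0.577% to 0.640% with P. chinensis.

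With B. chinense APOB stood at 10800, 10620 and 10360 CPM, a little under every control library but with a log2 fold change of only -0.06 (adjusted p = 0.844, edgeR), whose 95% interval ran from -0.23 to 0.10. With P. umbellatus it stood at 12990, 14670 and 10980 CPM, which overlapped the control range, and the log2 fold change of 0.22 missed the threshold (adjusted p = 0.0549, edgeR). The highest of these values came from replicate 2. Without it the change was 0.11 (adjusted p = 0.166, edgeR), and without replicate 3 it was 0.32 (adjusted p = 0.000837, edgeR).

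MTTP (ENSG00000138823) encodes the large subunit of the microsomal triglyceride transfer protein, without which apolipoprotein B is degraded before secretion. It lies on the plus strand of chromosome 4 from 99564081 to 99623997 (GRCh38), with 18 exons and a canonical transcript of 3920 bases. Control libraries held 223, 218 and 219.8 CPM and P. chinensis libraries 176, 165 and 160.2 CPM, with no overlap. Expression fell by 24.1%, or -0.40 on the log2 scale (SE 0.07, adjusted p = 0.00146, edgeR). With B. chinense it stood at 214, 212 and 220.3 CPM, which overlapped control (log2 fold change -0.03, 95% interval -0.17 to 0.10), and with P. umbellatus at 231, 259 and 221 CPM (log2 fold change 0.10, adjusted p = 0.252; 0.04 without replicate 2, adjusted p = 0.621; edgeR).

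APOB fell further than MTTP with P. chinensis. MTTP gave 19.73 to 19.98 counts per 1000 APOB counts in control libraries and 27.1 to 28.3 with P. chinensis, ranges that do not overlap. Across the 12 Huh7 libraries the log2 levels of both genes ran together with a Pearson r of 0.99, given as a description since the points share treatments and libraries. The difference between herbs was also tested directly, as a contrast that gives the control libraries no weight. Those libraries still entered the scaling and the shared estimate of spread of the fit. Against B. chinense, APOB was lower with P. chinensis by 0.82 on the log2 scale (adjusted p = 0.00012) and MTTP by 0.36 (adjusted p = 0.00695), the 2 members called where 7.81% of all genes were called in either direction by edgeR. Against P. umbellatus APOB was lower by 1.10 (adjusted p = 3.46e-05) and MTTP by 0.50 (adjusted p = 0.000465) in the same test. Both genes kept their direction and their call in the comparison with control under all 19 alternative settings run, in which the log2 fold change of APOB ran from -0.93 to -0.84 and that of MTTP from -0.48 to -0.35.

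RefSeq (GRCh38.p14) gives 2 windows around transcription starts of MTTP, and they are shown because this gene fell together with APOB. Each runs from 250 bases before a start to 50 bases from it. Capitals mark the letters TATAAA, read here on the opposite strand as TTTATA.
MTTP, chr4:99563880-99564179, plus strand: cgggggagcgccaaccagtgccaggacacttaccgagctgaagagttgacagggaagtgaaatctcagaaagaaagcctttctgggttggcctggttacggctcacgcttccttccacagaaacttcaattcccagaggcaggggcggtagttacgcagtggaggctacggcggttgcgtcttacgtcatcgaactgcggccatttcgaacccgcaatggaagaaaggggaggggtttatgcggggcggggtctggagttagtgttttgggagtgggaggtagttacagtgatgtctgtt
MTTP, chr4:99574574-99574873, plus strand: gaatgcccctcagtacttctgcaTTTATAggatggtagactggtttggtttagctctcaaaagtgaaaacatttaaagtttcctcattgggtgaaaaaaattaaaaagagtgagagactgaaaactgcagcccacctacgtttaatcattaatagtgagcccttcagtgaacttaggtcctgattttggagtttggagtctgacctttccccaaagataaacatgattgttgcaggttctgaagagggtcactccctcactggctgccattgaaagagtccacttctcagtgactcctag
The second window holds that letter run with its first base 227 bases before the start, at position -227, and 11.5% of all 35116 promoter windows of the table hold it on either strand. Neither window holds CAAAGTCCA, a run known from sites of the liver nuclear receptor HNF4A (0.384% of all windows), nor TGTTTAC, a forkhead run (3.42%). Neither holds an exact match to the DR1 repeat of nuclear receptors (0.0228%). Only exact letters were searched, so looser forms of these sites may be present. Such letters describe the windows only. The counts are summed per gene and do not tell which start was used.

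**Figure D2:**
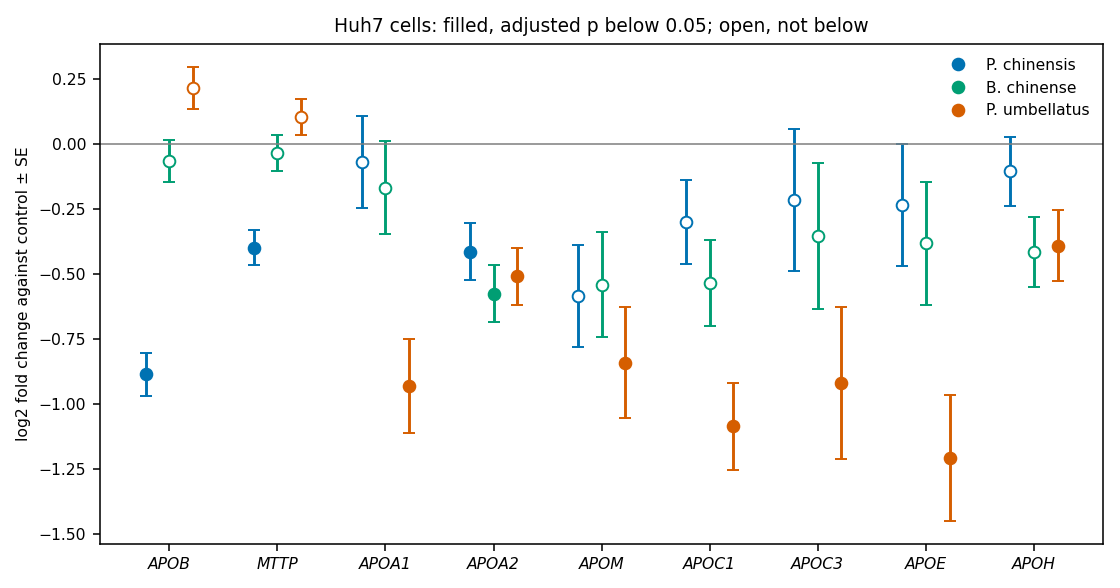
Log2 fold change against control (y axis, ± SE) of each member (x axis) in Huh7 cells for the 3 herbs; filled points have an adjusted p below 0.05 and open points do not. APOB and MTTP are low with P. chinensis alone, APOA2 is filled with all 3 herbs, and the remaining filled points belong to P. umbellatus.

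APOA2 (ENSG00000158874), the second protein of high density lipoprotein, was the only member called with each of the 3 herbs in Huh7 cells. It lies on the minus strand of chromosome 1 from 161222292 to 161223631, with 4 exons and a transcript of 474 bases, the shortest of the 9. Control libraries held 854, 703 and 760 CPM. P. chinensis libraries held 577, 549.7 and 613 CPM, B. chinense libraries 526, 579 and 449.5 CPM, and P. umbellatus libraries 469, 594 and 566 CPM. No treated library reached the lowest control, but the controls themselves spread by 9.84% (CV), more than for most members.

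The log2 fold change of APOA2 was -0.41 with P. chinensis (SE 0.11, adjusted p = 0.0186), -0.58 with B. chinense (SE 0.11, adjusted p = 0.024) and -0.51 with P. umbellatus (SE 0.11, adjusted p = 0.00511), all by edgeR. The calls with P. chinensis and B. chinense depended on single libraries. That with P. chinensis missed the threshold when control replicate 1 or 3 or P. chinensis replicate 1 or 2 was left out (adjusted p = 0.0501 to 0.0865), and that with B. chinense when control replicate 1 or 3 or B. chinense replicate 1 or 3 was left out (adjusted p = 0.088 to 0.122). The call with P. umbellatus was kept when any 1 library was left out, with a change of -0.58 without replicate 2 (adjusted p = 0.00231, edgeR). APOA2 was the 1 member called with B. chinense, a comparison in which 0.757% of all genes were called lower and 0.519% higher. With the correction for GC content and length the change with P. umbellatus was -0.08 (adjusted p = 0.635, edgeR), while those with P. chinensis and B. chinense were -0.47 and -0.45 and kept their calls.

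The window around the start of APOA2 is shown because it was the only member window with a forkhead run, the letters TGTTTAC, found on the opposite strand as GTAAACA and set in capitals.
APOA2, chr1:161223579-161223878, minus strand (RefSeq, GRCh38.p14): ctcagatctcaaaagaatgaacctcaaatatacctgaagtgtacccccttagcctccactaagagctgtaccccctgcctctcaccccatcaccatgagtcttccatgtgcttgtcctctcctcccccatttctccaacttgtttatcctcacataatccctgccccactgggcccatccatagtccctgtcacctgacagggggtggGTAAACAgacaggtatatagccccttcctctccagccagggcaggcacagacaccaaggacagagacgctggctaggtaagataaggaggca
The run starts at position -42 from the transcription start. No value measured here bears on binding at it. APOC1, APOE, APOH and APOM also had windows in the table, and these held none of the 4 runs searched; APOA1, APOB and APOC3 are named only.

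APOA1 (ENSG00000118137) encodes apolipoprotein A-I, the main protein of high density lipoprotein, and lies on the minus strand of chromosome 11 from 116835751 to 116837622. It was close to control with P. chinensis, at 254, 256 and 298 CPM against 285, 281 and 279.8 CPM in control. With B. chinense, at 253, 258 and 243 CPM, it lay below every control library. The log2 fold changes were -0.07 (95% interval -0.42 to 0.28) and -0.17 (95% interval -0.52 to 0.18), and neither was called. The latter was called in a fit on only the libraries compared (adjusted p = 0.0214, edgeR). With P. umbellatus the libraries held 146, 96.9 and 199.9 CPM, all below control, and the log2 fold change was -0.93 (SE 0.18, adjusted p = 0.00317, edgeR), and -0.70 without replicate 2 (adjusted p = 0.000534, edgeR). Relative to APOB, APOA1 counts thus moved both ways, from 25.1 to 25.7 per 1000 APOB counts in control libraries to 40.6 to 52.6 with P. chinensis and 6.61 to 18.2 with P. umbellatus. Those ratios were not corrected for GC content or length. With that correction the log2 fold changes with P. umbellatus were -0.085 for APOA1 and -0.018 for APOB (adjusted p = 0.231 and 0.827, edgeR).

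APOM (ENSG00000204444) encodes the carrier of sphingosine-1-phosphate on high density lipoprotein and was the lowest of the members, with 47 to 75 counts in the control libraries. It stood at 3.41, 2.90 and 3.13 CPM in control, at 1.85, 1.99 and 2.37 CPM with P. chinensis, at 2.08, 2.25 and 2.04 CPM with B. chinense and at 1.47, 1.87 and 1.77 CPM with P. umbellatus. All 9 treated libraries were below the lowest control. The log2 fold change with P. umbellatus was -0.84 (SE 0.21, adjusted p = 0.0108, edgeR; -0.90 without replicate 2, adjusted p = 0.0158), and those of -0.58 with P. chinensis (adjusted p = 0.0527) and -0.54 with B. chinense (adjusted p = 0.285) missed the threshold. The first of these passed it in 8 of 19 alternative settings, for example when replicate 2 of P. umbellatus was left out (adjusted p = 0.0363).

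APOE (ENSG00000130203) is the ligand by which remnant particles bind the low density lipoprotein receptor, and APOC1 (ENSG00000130208) is a small inhibitor of lipoprotein uptake. They lie side by side on the plus strand of chromosome 19, APOE from 44905791 to 44909393 and APOC1 from 44914247 to 44919349, with 4853 bases between them. With P. umbellatus APOE stood at 107.7, 46.5 and 125 CPM against 209.7, 209.7 and 229 CPM in control, and its log2 fold change of -1.21 (SE 0.24, adjusted p = 0.00365, edgeR) was the lowest of any member with any herb. APOC1 stood at 41.1, 31.6 and 60.5 CPM against 95.02, 93.01 and 97.62 CPM, a log2 fold change of -1.09 (SE 0.17, adjusted p = 0.0012, edgeR). In both genes replicate 2 was lowest and replicate 3 nearest to control. Without replicate 2 the change was -0.89 for APOE (adjusted p = 4.6e-05) and -0.89 for APOC1 (adjusted p = 0.000289), by edgeR.

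With the other 2 herbs APOE and APOC1 lay below every control library but were not called. APOE held 188, 166 and 199 CPM with P. chinensis (log2 fold change -0.23, adjusted p = 0.54, edgeR) and 166, 173 and 158 CPM with B. chinense (-0.38, adjusted p = 0.586, edgeR). APOC1 held 73.98, 76.33 and 82.06 CPM with P. chinensis (-0.30, adjusted p = 0.224, edgeR) and 71.3, 64.9 and 61.2 CPM with B. chinense (-0.53, adjusted p = 0.168, edgeR). These tests share 1 estimate of spread over the 12 Huh7 libraries. When replicate 2 of that group was left out, all 4 changes were called (APOE -0.24 and -0.38, adjusted p = 0.0245 and 0.0106; APOC1 -0.30 and -0.54, adjusted p = 0.0354 and 0.0107; edgeR).

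APOC3 (ENSG00000110245) encodes an inhibitor of triglyceride breakdown and faces APOA1 end to end on chromosome 11, on the plus strand from 116829706 to 116833072, with 2678 bases between the genes. It stood at 14.3, 11.3 and 12.8 CPM in control and at 7.21, 2.74 and 9.81 CPM with P. umbellatus, where replicate 2 held only 19 counts. The log2 fold change was -0.92 (SE 0.29, adjusted p = 0.0287, edgeR), and -0.58 without that library (adjusted p = 0.0223, edgeR). It missed the threshold when control replicate 1 or 3 was left out (adjusted p = 0.0846 and 0.0668, edgeR). With P. chinensis the libraries held 10.2, 11.1 and 11.9 CPM and with B. chinense 10.1, 11.1 and 8.90 CPM (log2 fold changes -0.21 and -0.35, adjusted p = 0.643 and 0.709, edgeR).

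APOH (ENSG00000091583) encodes beta-2-glycoprotein I, a phospholipid-binding plasma protein, and lies on the minus strand of chromosome 17 from 66212033 to 66256525. It stood at 48.9, 51.8 and 52.2 CPM in control, at 47.0, 47.3 and 48.0 CPM with P. chinensis, at 36.8, 43.4 and 34.3 CPM with B. chinense and at 29.6, 45.8 and 41.4 CPM with P. umbellatus. The P. chinensis libraries lay just under the lowest control and nearer to it than those of the other herbs. The log2 fold change was -0.10 with P. chinensis (adjusted p = 0.638, edgeR), -0.42 with B. chinense (adjusted p = 0.196, edgeR) and -0.39 with P. umbellatus (SE 0.14, adjusted p = 0.041, edgeR), or -0.51 without its replicate 2 (adjusted p = 0.00898, edgeR). The call with P. umbellatus was lost when P. umbellatus replicate 1 or any 1 of the 3 control libraries was left out (adjusted p = 0.0707 to 0.11).

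Counted over the list, 3 of the 9 members were called lower and 0 higher with P. chinensis, where 10.5% of the 13875 genes tested were called lower and 10.5% higher. With B. chinense 1 was lower and 0 higher, where 0.757% of all genes were lower and 0.519% higher. With P. umbellatus 7 were lower and 0 higher, where 17.8% of all genes were lower and 19.3% higher. DESeq2 gave the same numbers of members in all 3 comparisons. An unadjusted p below 0.05 was reached by 4 members under P. chinensis, 4 under B. chinense and 8 under P. umbellatus. In the same order the median log2 fold change of the members was -0.30, -0.38 and -0.84, beside 0.01, 0 and 0.03 over all genes tested. Without P. umbellatus replicate 2 the numbers lower were 6, 4 and 7, in fits that called 18.3%, 3.94% and 16.2% of all genes lower.

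In the direct comparison of P. chinensis with P. umbellatus, where 35.4% of all genes were called in either direction, 5 members were called. Besides APOB and MTTP, which were lower with P. chinensis, APOA1, APOC1 and APOE were higher by 0.86, 0.79 and 0.97 on the log2 scale (adjusted p = 0.00384, 0.00409 and 0.00914, edgeR). Between B. chinense and P. umbellatus 27.3% of all genes and 4 members were called. APOA1, APOC1 and APOE were higher with B. chinense by 0.76, 0.55 and 0.82 (adjusted p = 0.0143, 0.0328 and 0.0278, edgeR), and APOB was lower by 0.28 (adjusted p = 0.0265, edgeR). Without P. umbellatus replicate 2, APOC1 missed the threshold in this comparison (0.36, adjusted p = 0.0601, edgeR), and the other calls named here for both comparisons were kept. With the correction for GC content and length 0 members were called by edgeR in this last comparison (2 had an unadjusted p below 0.05), and 3 were called in that of P. chinensis with P. umbellatus, all lower with P. chinensis.

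**Figure D3:**
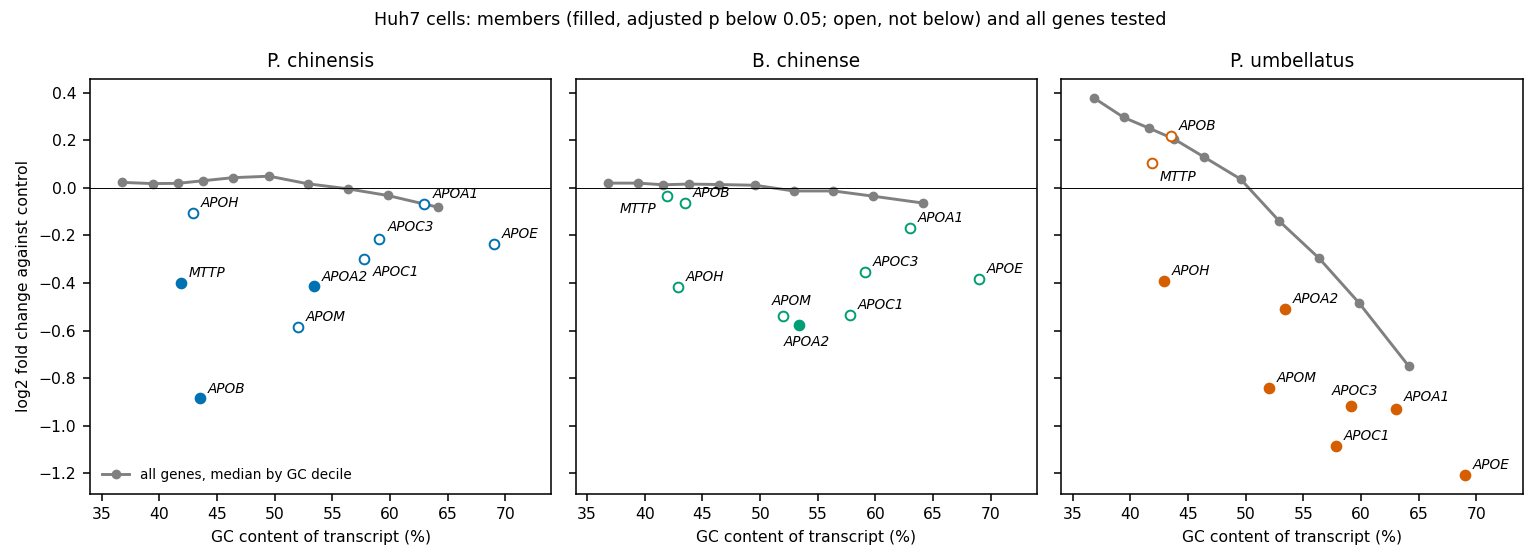
Log2 fold change against control in Huh7 cells (y axis) by GC content of the canonical transcript in percent (x axis) for each herb; coloured points are members (filled, adjusted p below 0.05), and the grey line joins medians of all genes tested in each of 10 equal classes of GC content. The line is nearly flat for P. chinensis and B. chinense and falls from 0.38 to -0.75 for P. umbellatus.

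With P. umbellatus the fold changes of all Huh7 genes followed GC content. In the class of genes with the least GC, 1 of 10 equal classes, the median log2 fold change was 0.38 and in the class with the most it was -0.75, while with P. chinensis these medians were 0.02 and -0.08 and with B. chinense 0.02 and -0.06. The P. umbellatus medians also ran with transcript length, from -0.26 in the class of the shortest transcripts to 0.21 in that of the longest. Taken per library, the median of the GC-poor class lay above that of the GC-rich class by 0.89, 1.96 and 0.60 in P. umbellatus replicates 1, 2 and 3, and by -0.01 to 0.14 in the other 9 Huh7 libraries. The members span this range. APOE has 69.0% GC (percentile 99.4 of all genes) and APOA1 63.0% (percentile 92.4), followed by APOC3 with 59.1%, APOC1 with 57.8%, APOA2 with 53.4% and APOM with 52.0%, while APOB has 43.5%, APOH 42.9% and MTTP 41.9%. All but APOB and MTTP are also among the shortest transcripts, at or under percentile 7.9 of length.

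Set against the median of their own class of GC content, most P. umbellatus changes came out smaller, while that of APOH came out larger and that of MTTP turned from above to below. APOB lay 0.01 above the median of its class and MTTP 0.15 below. APOA1 lay 0.18 below, APOA2 0.37 below and APOC3 0.43 below. APOE lay 0.46 below, APOH 0.59 below, APOM 0.70 below and APOC1 0.79 below. When every library was corrected for GC content and length before the fit, 3 members were called, in a fit that called 8.14% of all genes lower. These were APOC1 with a log2 fold change of -0.48 (adjusted p = 0.000509), APOH with -0.50 (adjusted p = 0.00375) and MTTP with -0.13 (adjusted p = 0.038), all by edgeR. APOC1 and APOH remained called when replicate 2 was left out as well (-0.43 and -0.57, adjusted p = 0.00131 and 0.00373, edgeR), an alternative chosen after the data had been seen. APOA1 came to -0.08, APOE to -0.02 and APOB to -0.02, with adjusted p of 0.231, 0.913 and 0.827. How much of the change with P. umbellatus belongs to GC content and how much to length, which were corrected together, was not tested.

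**Figure D4:**
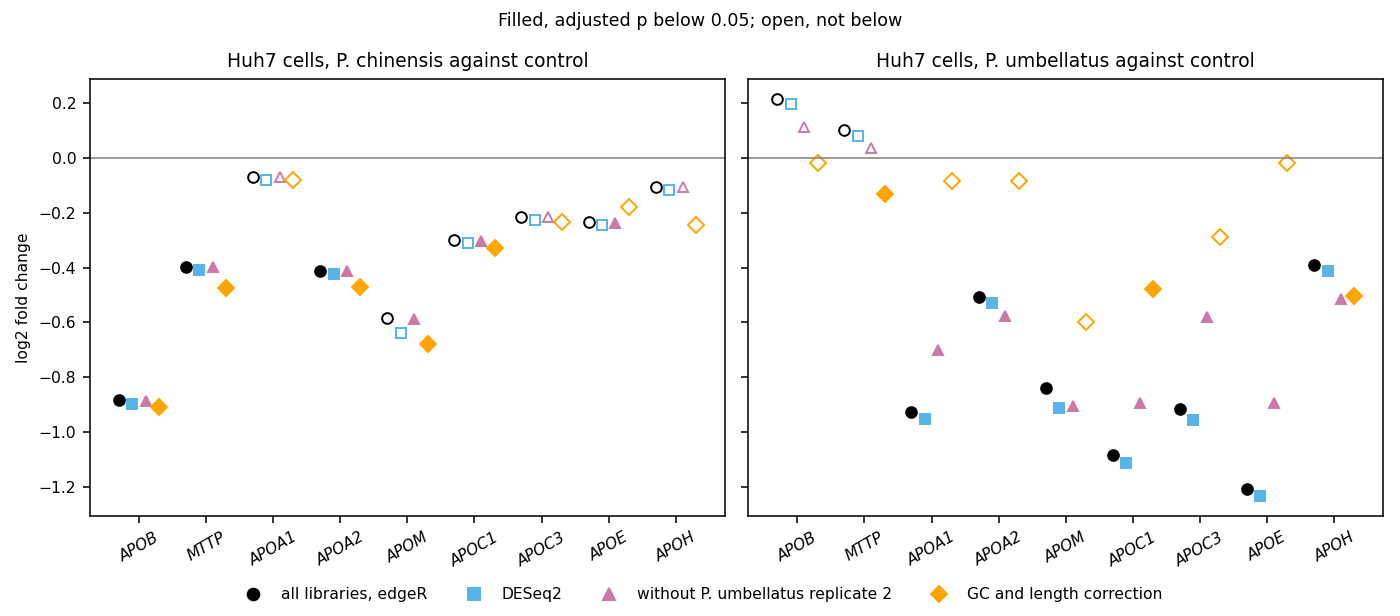
Log2 fold change against control (y axis) of each member (x axis) in Huh7 cells with P. chinensis (left) and P. umbellatus (right) under 4 settings; filled symbols have an adjusted p below 0.05. With P. chinensis the symbols of APOB lie between -0.91 and -0.89, while with P. umbellatus those of APOE run from -1.23 to -0.02.

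Values of library quality and sums of cell type markers moved with the groups as well. Mitochondrially encoded genes took 1.93% to 2.26% of the counts in Huh7 control libraries, 1.94% to 2.45% with B. chinense, 2.53% to 2.90% with P. chinensis and 2.41% to 3.91% with P. umbellatus. The hepatocyte marker sum was 12600 to 12820 CPM in control, 11580 to 11700 with B. chinense, 10080 to 10430 with P. chinensis and 9938 to 12130 with P. umbellatus. The sum of lung markers was 388 to 433 CPM in control, 347.5 to 372 with P. chinensis, 270 to 338 with B. chinense and 402 to 489 with P. umbellatus. In Huh7 cells most of this sum was AKR1C1, with a median of 358 CPM. The other lung markers in the table had medians of 0 to 6.33 CPM there, so the sum mainly follows that gene. Fibroblast, endothelial and leukocyte markers summed to 78.2 to 83.2 CPM in control, 100.9 to 112 with P. chinensis, 80.8 to 95.6 with B. chinense and 92.2 to 97.2 with P. umbellatus. Among these markers PECAM1 and CD68 had the highest medians in Huh7 cells, 37.7 and 30.7 CPM. The part of the mitochondrial share and of the marker sums in the changes of the members was not tested. In bulk RNA of a single culture line, the share of cells that express a gene and its level per cell cannot be told apart.

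In A549 cells the members were close to the limit of detection. APOA1, APOA2, APOC3, APOM and MTTP held 0 to 6 counts in any library. The other 4 were tested, APOB only through the P. chinensis libraries, since its mean of 6.08 counts over the 12 libraries was 3.67 without them. With P. chinensis 1 was called higher and 2 lower, where 15.8% of the 13633 genes tested were higher and 17.1% lower. With B. chinense 1 was lower, where 13.1% were higher and 15.0% lower, and with P. umbellatus 2 were lower, where 13.4% were higher and 14.8% lower.

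APOH was called lower with all 3 herbs in A549 cells. Control libraries held 86, 73 and 88 counts (10.9, 7.18 and 8.48 CPM) and P. chinensis libraries 40, 33 and 38 counts (4.68, 3.30 and 3.52 CPM). With B. chinense they held 48, 35 and 28 counts, and with P. umbellatus 84, 57 and 48, the first of these in the deepest A549 library, where it makes 4.97 CPM. Relative to control the log2 fold change was -1.17 with P. chinensis (SE 0.23, adjusted p = 0.00112), -0.97 with B. chinense (SE 0.23, adjusted p = 0.00515) and -0.70 with P. umbellatus (SE 0.22, adjusted p = 0.0289), by edgeR. The first and second of these held under all 15 alternatives run, and the third missed the threshold in 5 of them.

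APOC1 held 69, 91 and 65 counts in A549 control libraries. The P. chinensis libraries held 20, 35 and 58 counts, those of B. chinense 39, 46 and 35 and those of P. umbellatus 94, 40 and 34. On the CPM scale all 9 treated libraries lay between 2.34 and 5.56, below the controls at 6.27 to 8.95. Its log2 fold change was -1.04 with P. chinensis (adjusted p = 0.00972), -0.71 with B. chinense (adjusted p = 0.0706) and -0.79 with P. umbellatus (adjusted p = 0.0429), by edgeR. The call with P. umbellatus missed the threshold in 7 of 15 alternatives.

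APOE and APOB stood higher with P. chinensis in A549 cells, from very few counts. APOE held 11, 3 and 9 counts in control libraries and 12, 36 and 29 with P. chinensis, a log2 fold change of 1.43 (SE 0.49, adjusted p = 0.0386, edgeR) that missed the threshold in 5 of 15 alternatives. Among these were the fits without control replicate 2 (adjusted p = 0.137) or 3 (0.0857) and without P. chinensis replicate 2 (0.143) or 3 (0.0804). APOB held 5, 2 and 5 counts against 10, 15 and 15, a log2 fold change of 1.31 (adjusted p = 0.0751, edgeR; 0.0903 with no filter on low counts). As it passed the filter through the group in which it was high, this value is a description. With B. chinense APOE held 12, 12 and 19 counts and APOB 1, 3 and 4, and neither was called.

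**Figure D5:**
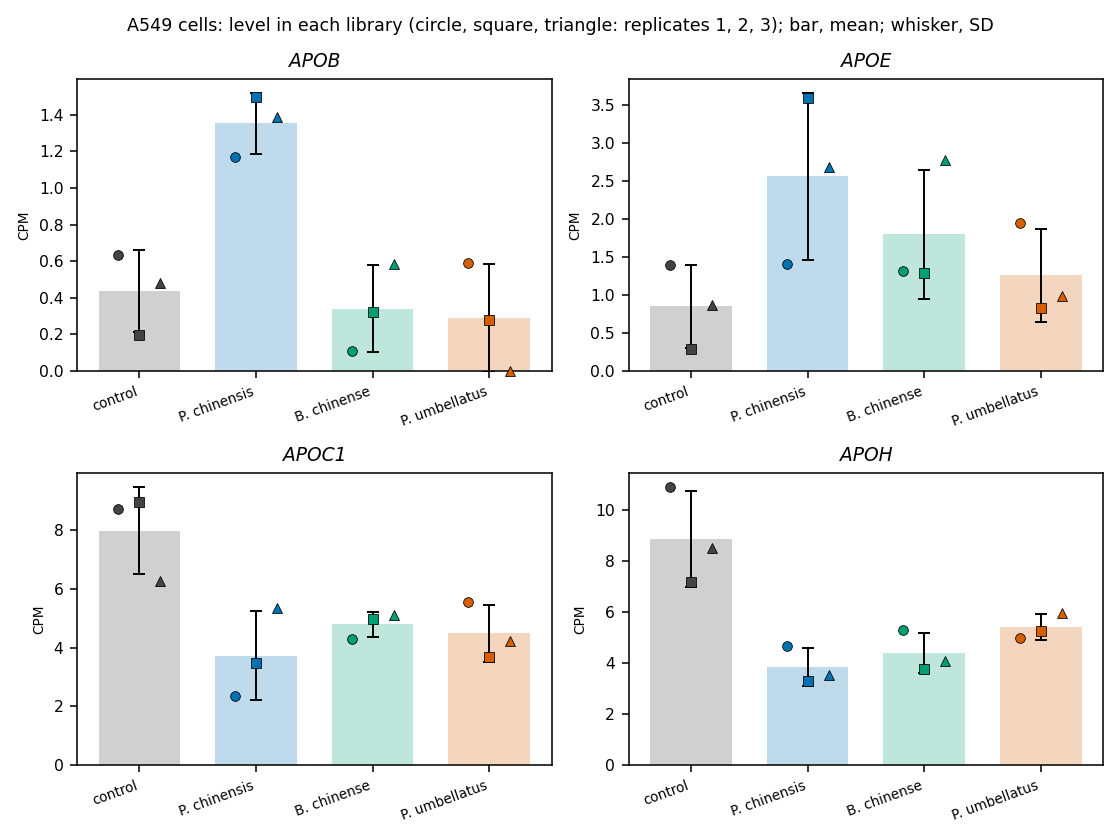
CPM of the 4 members tested in A549 cells (y axis, 1 panel per gene, each starting at 0) in the 12 libraries by group (x axis); points are libraries, bars group means and whiskers SD (n = 3). All treated points of APOH and APOC1 lie below the controls, and no APOB point exceeds 1.498 CPM.

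A difference in the effect of a herb between the 2 lines was tested by an interaction term over the 24 libraries, which covered 12924 genes with enough counts in each line, 4 of them members. With P. chinensis APOE and APOH differed, where 19.6% of all genes did. APOE had a log2 fold change lower in Huh7 than in A549 cells by 1.80 (SE 0.63, adjusted p = 0.0498, edgeR), while that of APOH was higher in Huh7 cells by 1.02 (SE 0.24, adjusted p = 0.00368). That of APOB was lower in Huh7 cells by 2.32 (SE 0.41, adjusted p = 0.000276, edgeR), which is given as a description, since APOB passed the filter in A549 cells only through the P. chinensis libraries. With P. umbellatus APOE differed, lower in Huh7 cells by 1.94 (SE 0.71, adjusted p = 0.0392; a difference of -1.64 without P. umbellatus replicate 2, adjusted p = 0.0117; edgeR), where 34.4% of all genes differed. With B. chinense 0 of the 4 members passed, where 11.6% of all genes did. APOH alone had an unadjusted p below 0.05 there (edgeR), and DESeq2 also called 0. The APOB and APOE differences set at least 76480 counts of APOB and 323 of APOE per Huh7 library against at most 15 and 36 per A549 library.

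The transcription factors known to act on apolipoprotein genes were called lower more often than higher in Huh7 cells with P. chinensis and P. umbellatus. Of 25 factors, 13 were lower and 1 higher with P. chinensis, 0 were called with B. chinense (edgeR; 5 were lower at an unadjusted p below 0.05, and DESeq2 called 2, both lower), and 15 were lower and 2 higher with P. umbellatus. Beside these counts and those of the lists that follow stand the shares over all genes tested. P. chinensis had 10.5% lower and 10.5% higher, B. chinense 0.757% lower and 0.519% higher, and P. umbellatus 17.8% lower and 19.3% higher. For the factors alone the median log2 fold change was -0.41, -0.13 and -0.51. With P. chinensis the largest falls were those of SREBF1, the sterol and fatty acid regulator, from 207.5 to 101 CPM (log2 fold change -0.98, adjusted p = 0.00402), and NR0B2, the bile acid-induced repressor SHP, from 18.7 to 9.98 CPM (-0.83, adjusted p = 0.013). PPARGC1A, a coactivator of fasting metabolism, rose from 2.039 to 4.996 CPM (1.30, adjusted p = 0.000414). HNF4A, which binds many apolipoprotein promoters, had a log2 fold change of 0.06 with P. chinensis (adjusted p = 0.752) and -0.28 with P. umbellatus (adjusted p = 0.0393). Its values after the correction for GC content and length and without P. umbellatus replicate 2 are not given here. Whether the call with P. umbellatus was kept there is therefore not told. HNF4A was added to the genes named after its values had been seen.

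With P. umbellatus the largest fall among these factors was that of the liver-enriched factor CEBPA, from 404 to 165.5 CPM (-1.23, adjusted p = 0.00125). PPARGC1A (0.57, adjusted p = 0.0404) and the nuclear receptor NR5A2 (0.34, adjusted p = 0.0107) rose, but neither was called after the correction (0.33, adjusted p = 0.299, and 0.06, adjusted p = 0.56). After the correction for GC content and length 6 of the 25 were lower and 1 higher with P. umbellatus, with CEBPA at -0.30, where 8.14% of all genes were lower and 11.5% higher, and 16 were lower and 2 higher with P. chinensis, where 19.8% of all genes were lower. In A549 cells 10 of 23 tested factors were lower and 2 higher with P. chinensis, where 17.1% of all genes were lower and 15.8% higher. The adjusted p-values of these paragraphs on pathway genes are from edgeR's quasi-likelihood test over all genes.

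Among 22 genes of particle assembly and export, 9 were lower and 1 higher with P. chinensis in Huh7 cells, 1 lower with B. chinense, and 5 lower and 7 higher with P. umbellatus. DGAT1, which makes triglyceride, fell with P. chinensis from 19.4 to 9.39 CPM (-0.98, adjusted p = 0.00571) and with P. umbellatus to 6.54 CPM (-1.48, adjusted p = 0.00114). SOAT2, which makes the cholesteryl ester of the particle core, fell with both (-0.65, adjusted p = 0.0134; -0.89, adjusted p = 0.00291). VMP1, a lipid scramblase of the endoplasmic reticulum, rose with both (0.54, adjusted p = 0.0057; 0.66, adjusted p = 0.00215). CIDEB, which promotes lipidation of the particle, was the gene lower with B. chinense (-0.52, adjusted p = 0.0234), and SEC23A of the export coat rose with P. umbellatus (0.42, adjusted p = 0.00736) but was not called after the correction (0.13, adjusted p = 0.0785). The correction brought the P. umbellatus changes of DGAT1 and SOAT2 to -0.79 and -0.43, which kept their calls (adjusted p = 0.00161 and 0.0279). After it, 1 of the 22 was higher and 5 lower with P. umbellatus, and 2 were higher and 12 lower with P. chinensis.

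Of 14 genes that remodel lipoproteins outside the cell, 6 were lower and 1 higher with P. chinensis, 1 lower with B. chinense, and 6 lower and 1 higher with P. umbellatus. After the correction for GC content and length 3 were lower and 0 higher with P. umbellatus, where 8.14% of all genes were lower and 11.5% higher. The numbers with P. chinensis stayed at 6 lower and 1 higher. ANGPTL4, an inhibitor of lipoprotein lipase, rose with P. chinensis (1.01, adjusted p = 0.0494), and ABCA1, which loads lipid onto apolipoprotein A-I, rose with P. umbellatus (0.23, adjusted p = 0.016) but not after the correction (0.06, adjusted p = 0.416).

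Receptors for lipoproteins moved in both directions. Of 15 tested, 5 were lower and 2 higher with P. chinensis, 0 lower and 1 higher with B. chinense (edgeR; 2 were lower at an unadjusted p below 0.05, and DESeq2 called 0 lower), and 5 lower and 3 higher with P. umbellatus, where 19.3% of all genes were higher. LRP2, the large endocytic receptor megalin, rose with every herb, from 10.3 CPM in control to 19.1 (0.94, adjusted p = 0.000175), 17.0 (0.74, adjusted p = 0.0114) and 17.7 CPM (0.83, adjusted p = 0.000983). LRP8, the apolipoprotein E receptor 2, fell with P. chinensis from 78.9 to 41.7 CPM (-0.86, adjusted p = 3.74e-05). AMN, a partner of the receptor cubilin, fell with P. umbellatus (-1.99, adjusted p = 0.0231), and came to -0.92 (adjusted p = 0.212) after the correction.

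Of 10 further apolipoprotein genes in the table, 2 were higher and 1 lower with P. chinensis, 0 were called with B. chinense (edgeR; 3 were lower at an unadjusted p below 0.05, and DESeq2 called 0), and 1 was higher and 2 lower with P. umbellatus. APOA4, which lies in the same cluster as APOA1 and APOC3 and takes part in the secretion of large particles, rose with P. chinensis from 2.81 to 11.4 CPM (2.02, SE 0.30, adjusted p = 0.000477). APOL6, an intracellular relative, fell with that herb (-0.34, adjusted p = 0.0216). With P. umbellatus APOL4 rose (0.68, adjusted p = 0.0241) and CLU, or apolipoprotein J, fell from 925 to 588 CPM (-0.60, adjusted p = 0.00976). Secreted proteins of the liver that are no apolipoproteins changed too. Of the 12 hepatocyte markers 5 were lower and 2 higher with P. chinensis, 1 lower and 2 higher with B. chinense, and 6 lower and 3 higher with P. umbellatus. AHSG, a plasma glycoprotein, fell with each herb (-1.18, -0.98 and -1.35, adjusted p = 1.26e-06, 0.000109 and 4.58e-06), and FGB, the fibrinogen beta chain, rose with each (0.69, 0.43 and 0.44, adjusted p = 8.37e-05, 0.0201 and 0.00226).

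Genes with the most similar pattern over the 12 Huh7 libraries were looked up by Pearson correlation of log2 CPM, as a description with no test, since the libraries share treatments and depth. APOB was most like KCTD3 (r = 0.992), PRKDC, the catalytic subunit of DNA-dependent protein kinase (0.991), and MBLAC2 (0.987). MTTP was likewise closest to KCTD3 (0.99), then RPS6KA3 (0.985) and ACADSB (0.983). APOA2 was closest to ORM2, an acute phase plasma protein (0.922), APOM to C1RL (0.944) and APOH to TSPAN8 (0.908). APOA1 was closest to RPL4 (0.992), APOC1 to MRPS12 (0.971), APOC3 to ZNF576 (0.985) and APOE to STK25 (0.99). Without P. umbellatus replicate 2 the r of APOA1, APOC1, APOC3 and APOE with these genes was 0.976, 0.955, 0.93 and 0.965. The levels were not corrected for GC content or length.

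Among the members themselves 2 sets ran together. APOA1, APOC1, APOC3 and APOE correlated with each other at 0.92 to 0.97, and each ran against APOB and MTTP (r from -0.59 to -0.47). APOA2 ran with APOM (0.87) and APOH (0.81). These levels were not corrected for GC content or length, and the P. umbellatus libraries were included. The transcripts of APOA1, APOC1, APOC3 and APOE have 57.8% to 69.0% GC, those of APOB and MTTP 43.5% and 41.9%. The part of GC content and length in these correlations was not tested. In the neighbouring pairs the counts kept nearly fixed ratios except in P. umbellatus replicate 2. APOE gave 2.06 to 2.67 counts per APOC1 count in the other 11 Huh7 libraries and 1.48 in that one, and APOA1 gave 19.9 to 27.3 counts per APOC3 count against 35.4.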

How the data were processed

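RNA of 24 samples was sequenced as ribosome-depleted, stranded total RNA in paired ends. The authors deposited estimated counts per gene, made with kallisto against Ensembl transcripts of GRCh38.p13, limited to protein-coding genes with a mean above 5 and written as whole numbers without normalization. Reads of similar transcripts are split by the estimation, and strand was kept by the kit. Positions, transcript lengths and GC contents are of the canonical transcripts of GENCODE (GRCh38). Promoter windows were copied from RefSeq.

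Counts were analysed in R 4.3.3. Per cell line, genes with a mean above 5 counts over 12 libraries (13875 in Huh7, 13633 in A549 cells) were TMM-normalized and fitted with edgeR 4.0.16 (quasi-likelihood, group as only term, prior count 2, Benjamini-Hochberg adjustment, threshold 0.05). Interactions and control lines were fitted over all 24 libraries. Precision comes from the spread between 3 replicates. Alternatives were DESeq2 1.42.0, voom with sample weights (limma 3.58.1), RLE and upper quartile scaling, other filters, a replicate block, only the libraries compared, offsets per library that take out trends with GC content and length (splines of 5 df; called the GC and length correction), and leaving out each library. The pipeline was tested on simulated data. Replicate numbers did not pair the samples. The members and lists were chosen with earlier results of these data known. All members are named. From each pathway list, called genes with the largest rise and fall per herb in Huh7 cells are named (mean of at least 50 counts, 1 each, or 2 for assembly genes and transcription factors), as are the 3 genes most like APOB and MTTP and the nearest gene of the others, and HNF4A. Of the genes this rule names, 2 are not reported here.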

Additional observations from a re-analysis of the deposited data

Results flagged for a closer look

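For 4 results the difference between the cell lines was itself past the threshold in the interaction test (edgeR's quasi-likelihood test over all 24 libraries, adjusted over 12924 genes). With P. chinensis the log2 fold change of APOB in Huh7 cells minus that in A549 cells was -2.32 (adjusted p = 0.000276), lower in all 3 Huh7 libraries and higher in all 3 A549 libraries than in their controls. In A549 cells APOB passed the filter on low counts only through the P. chinensis libraries, with a mean of 6.08 counts over 12 libraries and 3.67 without these 3, so this difference is a description and its p no support. With no filter on low counts it was -2.35. For APOH with P. chinensis it was 1.02 (adjusted p = 0.00368) and held under all 24 alternatives run, from 0.85 to 1.17. For APOE with P. chinensis it was -1.80 (adjusted p = 0.0498), and it missed the threshold in 13 of 24 alternatives. For APOE with P. umbellatus it was -1.94 (adjusted p = 0.0392), and it missed the threshold in 7 of 21 alternatives, reaching -0.66 at its smallest. In A549 cells APOE held 3 to 36 counts per library, so these last 2 differences rest on few counts.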

How the results depend on the processing

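The calls of APOB and MTTP with P. chinensis in Huh7 cells held under every alternative run, and so did those of APOC1 and APOH with P. chinensis and of APOH with B. chinense in A549 cells and of APOC1 with P. umbellatus in Huh7 cells. Other numbers of members called moved. With P. chinensis in Huh7 cells, 3 by the test of the report, they were 6 with voom, 5 with the GC and length correction, 6 in a fit on only the libraries compared and 2 to 6 when 1 library was left out. With B. chinense, 1 in the report, they were 4, 3, 5 and 0 to 4 in the same order, and 0 with a replicate block. With P. umbellatus, 7 in the report, they were 3 with the correction, 3 on only the libraries compared and 5 to 8 without 1 library. With the correction and without P. umbellatus replicate 2, an alternative added after seeing the data, the 3 numbers were 6, 3 and 2, and 3 and 0 for P. chinensis and B. chinense against P. umbellatus. The share of all genes called lower moved too. For P. chinensis, B. chinense and P. umbellatus it was 10.5%, 0.757% and 17.8% in the report and 19.8%, 3.45% and 8.14% with the correction. With the correction and without that replicate it was 22.4%, 4.89% and 7.56%. For voom, the replicate block and only the libraries compared this share was not counted. Nor was it counted under alternatives for comparisons between herbs and for interactions.

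Between herbs, P. chinensis against B. chinense gave 4 on only the libraries compared, P. chinensis against P. umbellatus 3 with the correction and 5 to 6 without 1 library, and B. chinense against P. umbellatus 0 with the correction, 0 on only the libraries compared and 1 to 6 without 1 library. In A549 cells P. umbellatus, 2 in the report, gave 1 with upper quartile scaling, 1 with the replicate block, 0 with the correction and 0 to 1 without 1 library. B. chinense gave 2 on only the libraries compared, and P. chinensis 2 to 3 without 1 library. The interaction with P. umbellatus gave 0 with voom, 0 with the correction, 0 on only the libraries compared and 0 to 1 without 1 library, that with B. chinense 1 on only the libraries compared and 0 to 1 without 1 library, and that with P. chinensis 2 to 4 without 1 library. The replicate block changed no other number of members called by over 1.5 times. Deviations from the group means of samples with the same number correlated at -0.13 to 0.07 in A549 and -0.06 to 0.11 in Huh7 cells.

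The 54 log2 fold changes of members took 941 values under the alternatives. Of these values 91, from 20 fold changes, newly missed the threshold, 39, from 11 fold changes, newly passed it, and 11, from 7 fold changes, changed sign. With the correction the change with P. umbellatus in Huh7 cells was -0.018 for APOB and -0.132 for MTTP, and APOE was at -0.16 for P. chinensis and -0.23 for B. chinense against P. umbellatus. With replicate 2 left out as well these were -0.073, -0.133, -0.20 and -0.26, and APOE with P. umbellatus against control was at 0.015. In A549 cells APOB ran from -0.592 to 0.032 with B. chinense when 1 library was left out, changing sign without B. chinense replicate 1, and from -0.809 to 0.049 with P. umbellatus, changing sign without P. umbellatus replicate 3. The correction's own construction lowers changes that follow GC content or length. In A549 cells depth limits the members to changes of APOB, APOC1, APOE and APOH.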
